A study of Mus musculus with 194 samples.

Results

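Cortical transposon insertions were compared between mice of a GFAPCre line and their Cre-negative controls, GFAPCreNeg, to describe at which genes Cre shifted the record of transposase activity. The comparison takes the 6 animals labelled GFAPCre and the 6 labelled GFAPCreNeg, 12 of the 46 animals of the series, chosen by these labels alone, and leaves out the Frontflip animals. Every animal of both groups received adeno-associated virus (AAV) on postnatal day 0 to 1, and the tissue was cortex. Each cortex was cut into 10 pieces from which RNA was isolated separately, and the insertions of the 10 pieces make up the deposited table of an animal. GFAPCre mice carry a Cre recombinase named for the promoter of Gfap, the intermediate filament gene used as an astrocyte marker, and GFAPCreNeg mice carry no Cre by their label. The labels do not give the promoter fragment that drives Cre, the transposase, the viral constructs of these groups, the age at collection, the sex or the strain. The labels number the animals of a group as replicates without saying that they came from separate litters, so p-values measure the spread between these animals. Positions are in GRCm38, chromosomes 1 to 19.

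Calling cards record where a transposase has been in the genome of living cells. The transposase cuts a reporter transposon from the virus and pastes it at a TTAA sequence, and the unfused piggyBac transposase commonly used for this inserts often near active enhancers and genes, so that the insertions of a cell type collect at its own active loci. In a self-reporting transposon the insertion carries a promoter that transcribes into the neighbouring genomic sequence, which lets the site be read from RNA. Astrocytes clear glutamate and potassium from around synapses, share ions and metabolites through gap junctions, and supply active thyroid hormone and lipids to neurons, and each of these tasks has well-known genes. A Cre that acts in astrocytes would bring a Cre-dependent virus into use in those cells, so the loci of these genes were examined first. Astrocyte loci took a smaller share of insertions in GFAPCre than in GFAPCreNeg animals, and no gain at astrocyte markers passed the test.

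The insertion sites themselves can be seen in the promoters of 5 genes whose loci changed, shown because 4 of them (Dio2, Gja1, Gjb6 and Slc7a11) lie at astrocyte loci that were lower in GFAPCre and 1 (Slc17a6) at a neuronal locus that was higher. Each stretch runs 5′ to 3′ along the gene's strand, from 250 bases before a RefSeq start to 50 after it (GRCm38.p6). Capitals mark the TTAA sites that held insertions in the 12 animals. For Slc7a11 this start lies inside the gene body as counted here and is not the gene start used for its locus. The stretches are Dio2 at chr12:90738989-90739288 (minus strand), Gja1 at chr10:56377050-56377349 (plus), Gjb6 at chr14:57133562-57133861 (minus), Slc7a11 at chr3:50443564-50443863 (minus) and Slc17a6 at chr7:51621580-51621879 (plus).
Dio2: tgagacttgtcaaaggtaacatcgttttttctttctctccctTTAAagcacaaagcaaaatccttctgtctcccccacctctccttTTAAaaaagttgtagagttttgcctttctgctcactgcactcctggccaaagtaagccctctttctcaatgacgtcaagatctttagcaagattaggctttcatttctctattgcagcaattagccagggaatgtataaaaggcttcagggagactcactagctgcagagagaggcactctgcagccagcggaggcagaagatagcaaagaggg
Gja1: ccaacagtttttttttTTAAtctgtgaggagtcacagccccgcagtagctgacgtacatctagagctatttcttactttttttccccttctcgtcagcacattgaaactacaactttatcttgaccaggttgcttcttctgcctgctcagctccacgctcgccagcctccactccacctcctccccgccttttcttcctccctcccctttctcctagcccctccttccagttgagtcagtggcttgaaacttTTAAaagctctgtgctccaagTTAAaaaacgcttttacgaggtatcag
Gjb6: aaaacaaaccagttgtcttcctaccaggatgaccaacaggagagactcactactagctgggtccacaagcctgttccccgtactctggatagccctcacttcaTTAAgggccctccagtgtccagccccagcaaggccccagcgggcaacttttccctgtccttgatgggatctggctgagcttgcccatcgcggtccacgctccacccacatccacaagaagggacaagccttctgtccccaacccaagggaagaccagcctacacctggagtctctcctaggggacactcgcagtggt
Slc7a11: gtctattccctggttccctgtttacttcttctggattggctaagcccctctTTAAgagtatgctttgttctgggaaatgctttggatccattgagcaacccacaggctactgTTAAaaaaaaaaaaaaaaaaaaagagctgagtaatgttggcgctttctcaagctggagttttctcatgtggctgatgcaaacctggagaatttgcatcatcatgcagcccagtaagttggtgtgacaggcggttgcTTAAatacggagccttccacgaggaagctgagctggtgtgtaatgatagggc
Slc17a6: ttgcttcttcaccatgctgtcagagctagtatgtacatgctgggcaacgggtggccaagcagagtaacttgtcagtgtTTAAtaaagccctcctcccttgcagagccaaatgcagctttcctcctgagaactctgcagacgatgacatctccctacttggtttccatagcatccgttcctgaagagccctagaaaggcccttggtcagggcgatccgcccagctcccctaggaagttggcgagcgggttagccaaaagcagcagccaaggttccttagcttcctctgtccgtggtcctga

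TTAA reads the same on both strands, and 52.3% of the 31396 RefSeq promoters of this length hold it, so its presence is not particular to these genes. All 86730 insertions that fell in any of these promoters started at a TTAA. In the Dio2 promoter the site at base 43 of the printed stretch held 4 to 10 insertions in every GFAPCreNeg animal and 6 to 8 in every GFAPCre animal, in all 45 against 41, and the site at base 87 held 56 against 43. The single TTAA of the Gjb6 promoter held 55 insertions in each group. The 3 sites of the Slc7a11 promoter held 60, 8 and 73 insertions in GFAPCre and 59, 12 and 66 in GFAPCreNeg. These counts are not scaled, and the GFAPCre animals held 2.01 times as many insertions in all, so an equal count is a smaller share. In the Gja1 promoter the sites held 0, 12 and 8 insertions in GFAPCre and 3, 12 and 20 in GFAPCreNeg. The Slc17a6 site held 42 insertions in GFAPCre (5 to 8 per animal) and 24 in GFAPCreNeg (0 to 7 per animal), which is also less than the 2.01-fold difference in totals, although the whole locus was higher.

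GFAPCre animals held between 585792 and 1468600 insertions (846031 ± 334304, SD, n = 6) and GFAPCreNeg animals between 202904 and 582884 (418963 ± 127824, SD, n = 6). The groups did not overlap, and the ratio of geometric means was 2.01 (exact two-sided permutation test over 924 splits, p = 0.00216, adjusted p = 0.00649 over 6 tests). Reads per insertion were 14.9 ± 6.41 (SD, n = 6) and 18.8 ± 7.18 (SD, n = 6), a difference that missed the threshold in the same test (adjusted p = 0.333). GFAPCreNeg animal 6 stood apart as the shallowest and GFAPCre animal 2 as the deepest. An animal shows at most 10 insertions at a position and strand, since the 10 pieces cannot tell a second insertion in the same piece from the first. Sites used 5 or more times held between 5.65% and 9.55% of insertions in GFAPCre animals and between 5.05% and 7.06% in GFAPCreNeg animals. GEO samples pooled pieces of several animals: GFAPCre animal 4 shared pools with GFAPCreNeg animal 1, GFAPCre animal 5 with GFAPCreNeg animals 3 and 6, and GFAPCre animal 6 with GFAPCreNeg animal 4, while GFAPCre animals 1 to 3 shared pools with Syn1CreNeg animals.

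Insertions in GFAPCre animals were more dispersed than in GFAPCreNeg animals and lay less often at genes. Of all insertions, 72.4% ± 0.702 (SD, n = 6) in GFAPCre and 75.2% ± 0.764 (SD, n = 6) in GFAPCreNeg lay in a protein-coding gene body or its 10 kb flanks. These loci cover 49.6% of the length of chromosomes 1 to 19. The groups did not overlap, and the difference of -2.79 percentage points passed the exact two-sided permutation test (p = 0.00216, the smallest it can give; adjusted p = 0.00649). After each animal was thinned to 202904 insertions, the share at positions used more than once was 22.1% ± 2.81 (SD, n = 6) in GFAPCre and 27.5% ± 3.70 (SD, n = 6) in GFAPCreNeg (exact two-sided permutation test, adjusted p = 0.0130). Shares within 1 kb of a gene end (7.48% against 7.88%) and in the 492 windows densest in the Cre-independent C57bl6J animals (12.4% against 13.6%) were also lower in GFAPCre, but neither passed (exact two-sided permutation tests, adjusted p = 0.0831 for each). Among the 7 animals that share pools with the other group, the difference in gene loci was -2.76 (exact permutation test, p = 0.0286, adjusted p = 0.0571), and 3 against 4 animals allow no smaller unadjusted p.

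Losses of normalised insertions outnumbered gains along the genome. Values are TMM-normalised insertions scaled to a common library total and given as CPM, compared by edgeR's quasi-likelihood test with Benjamini-Hochberg adjustment over all features and a threshold of 0.05. Of 16551 windows of 50 kb tested, 1098 passed (6.63%): 151 were higher in GFAPCre (0.912%) and 947 lower (5.72%). With library totals instead of TMM factors, 264 rose and 806 fell, which raised the higher calls from 13.8% to 24.7% of the windows called. Of 8947 gene loci tested (protein-coding genes extended by 10 kb on either side), 734 passed (8.2%): 195 were higher (2.18%) and 539 lower (6.02%). In 185 of the lower and 65 of the higher loci the 6 animals of the groups did not overlap, against 2.35% and 1.11% of all loci tested that were lower and higher without overlap. Overlapping loci share insertions, and the lower loci formed 461 separate stretches and the higher ones 175. Lower loci were densely used (median 124 CPM in GFAPCreNeg, against 38.8 over all loci tested) and higher loci were not (median 37.6 CPM). Changes were modest, with 41 of the lower and 8 of the higher loci beyond 2-fold. A lower CPM seldom meant fewer insertions: the mean unscaled count was lower in GFAPCre at 40 of the 539 lower loci, because the totals differed 2.01-fold. A smaller share from a cell type can come from fewer such cells, fewer insertions per cell or more insertions elsewhere. These cannot be told apart here. Leaving out GFAPCre animal 2 gave 371 called loci and leaving out GFAPCre animal 3 gave 1084, against 734 with all animals. With the 7 pool-sharing animals and the pool as a block, 23 loci passed, and all 731 of the calls that could be tested kept their direction.

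Loci of the proteins by which astrocytes take up transmitter and ions and couple to each other were lower in GFAPCre. Of 19 listed loci 17 could be tested, and 9 of the 17 fell in edgeR (52.9% against 6.02% of all loci tested) and 8 in DESeq2. None rose in either tool, nor at an unadjusted p under 0.05, and the other 8 had values below 0 without passing. The median log2 fold change of the 17 was -0.64, against 0.02 over all loci tested. This and the other lists were chosen with earlier results of these data known, so their percentages describe the lists and do not test them. Gja1, the main connexin of astrocyte gap junctions (chromosome 10, 56377300 to 56390419), was at 48.1 CPM in the lowest, 67.5 in the median and 116 in the highest GFAPCre animal, and at 118, 150 and 306 in GFAPCreNeg. The groups did not overlap, and Gja1 fell by 1.20 on the log2 scale (SE 0.183, adjusted p = 0.000246). Gjb6, the second astrocyte connexin (chromosome 14, 57123301 to 57133611), was at 54.2, 75.1 and 145 CPM in GFAPCre and at 141, 185 and 347 in GFAPCreNeg. Only GFAPCre animal 3 reached the GFAPCreNeg range, and Gjb6 fell by 1.21 (SE 0.200, adjusted p = 0.000443). Its locus overlaps that of Gjb2, a neighbouring connexin, which was at -0.52 and did not pass (adjusted p = 0.268). Slc1a2, the glutamate transporter GLT-1 that clears most synaptic glutamate (chromosome 2, 102658239 to 102790784), ranged from 303 over a median of 401 to 510 CPM in GFAPCre and from 499 over 633 to 1041 in GFAPCreNeg. The ranges touched at the ends, and Slc1a2 fell by 0.72 (SE 0.138, adjusted p = 0.0013). Slc7a11, the cystine-glutamate exchanger that feeds glutathione synthesis (chromosome 3, 50364936 to 50499087), fell by 0.94 (SE 0.179, adjusted p = 0.00127), with 264 to 613 CPM in GFAPCre and 617 to 1588 in GFAPCreNeg. Kcnj16, a potassium channel subunit, fell by 1.03 and did not overlap between groups. Hepacam, an adhesion protein of astrocyte contacts, fell by 0.72, the bicarbonate cotransporter Slc4a4 by 0.69, and Glul, which turns glutamate into glutamine, by 0.51. Slc1a3, the glutamate transporter GLAST, was at -0.51 (adjusted p = 0.0699), the potassium channel Kcnj10 at -0.59 (adjusted p = 0.0595) and the water channel Aqp4 at -0.48 (adjusted p = 0.133), and none of these passed.

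**Figure D1:**
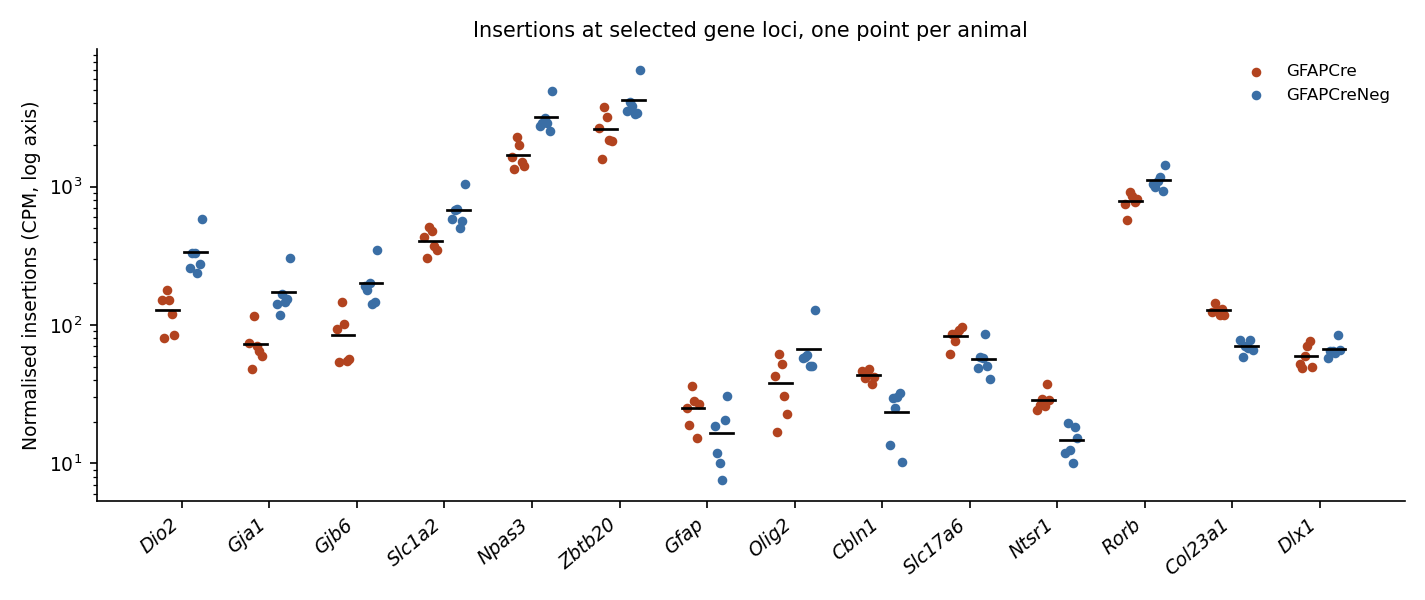
Normalised insertions (CPM, log axis) at 14 gene loci, with a point for each animal (red GFAPCre, blue GFAPCreNeg, 6 each) and a bar for the group mean. At Dio2, Gja1 and Npas3 every GFAPCre animal lies below every GFAPCreNeg animal, at Cbln1, Ntsr1 and Col23a1 every GFAPCre animal lies above, and Gfap and Dlx1 overlap.

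Loci of astrocyte metabolism and secreted proteins were lower too. Of 32 listed loci 29 could be tested, and 17 of the 29 fell in edgeR (58.6%, against 6.02% of all loci tested) and 17 in DESeq2. None rose in either tool, 1 was above 0 at an unadjusted p under 0.05 (Gfap), and the median was -0.64. Dio2, the deiodinase that makes active thyroid hormone in astrocytes (chromosome 12, 90724552 to 90739038), was at 80.6, 135 and 180 CPM in the lowest, median and highest GFAPCre animal and at 237, 302 and 582 in GFAPCreNeg. The groups did not overlap, and Dio2 fell by 1.36 (SE 0.181, adjusted p = 9.64e-05). Its locus held 616 insertions over the 6 GFAPCre animals and 782 over the 6 GFAPCreNeg animals, so this locus was lower before scaling as well. Slco1c1, the thyroid hormone transporter that works beside Dio2 and is also made by brain endothelium, ranged from 122 to 246 CPM in GFAPCre and from 217 to 470 in GFAPCreNeg and fell by 0.82 (SE 0.156, adjusted p = 0.00127). These were the 2 that fell among 10 tested loci of thyroid hormone handling, whose median was 0.02. Daam2, a formin of Wnt signalling, fell by 1.24, the zinc transporter Slc39a12 by 1.14, the growth factor receptor Egfr by 1.07, the endothelin receptor Ednrb by 1.04 and the cation ATPase Atp13a4 by 0.97. Ednrb did not overlap between groups, at 71.1 to 166 CPM in GFAPCre and 174 to 414 in GFAPCreNeg. Smaller declines past the threshold were measured at Ntsr2 (-0.87), at Ppp1r3c, a glycogen-targeting phosphatase subunit (-0.85), at the secreted protease Htra1 (-0.80), at Pla2g7 (-0.73), and at the secreted proteins Sparcl1 (-0.66), Clu (-0.65) and Cst3 (-0.62). The metal-binding Mt3 (-0.64), the fibroblast growth factor receptor Fgfr2 (-0.64) and the receptor phosphatase Ptprz1 (-0.62) complete the 17. Among markers often used to identify astrocytes, Aldoc was at -0.57 (adjusted p = 0.174) and Aldh1l1 at -0.15 (adjusted p = 0.784), and neither passed. Gfap was the only tested member of these lists above 0. It was at 15.3, 26.1 and 35.9 CPM in GFAPCre and at 7.56, 15.2 and 30.6 in GFAPCreNeg, with a log2 fold change of 0.65 (SE 0.275) that did not pass (adjusted p = 0.142). Its locus overlaps 4 other gene loci and held 123 and 39 insertions in all.

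**Figure D2:**
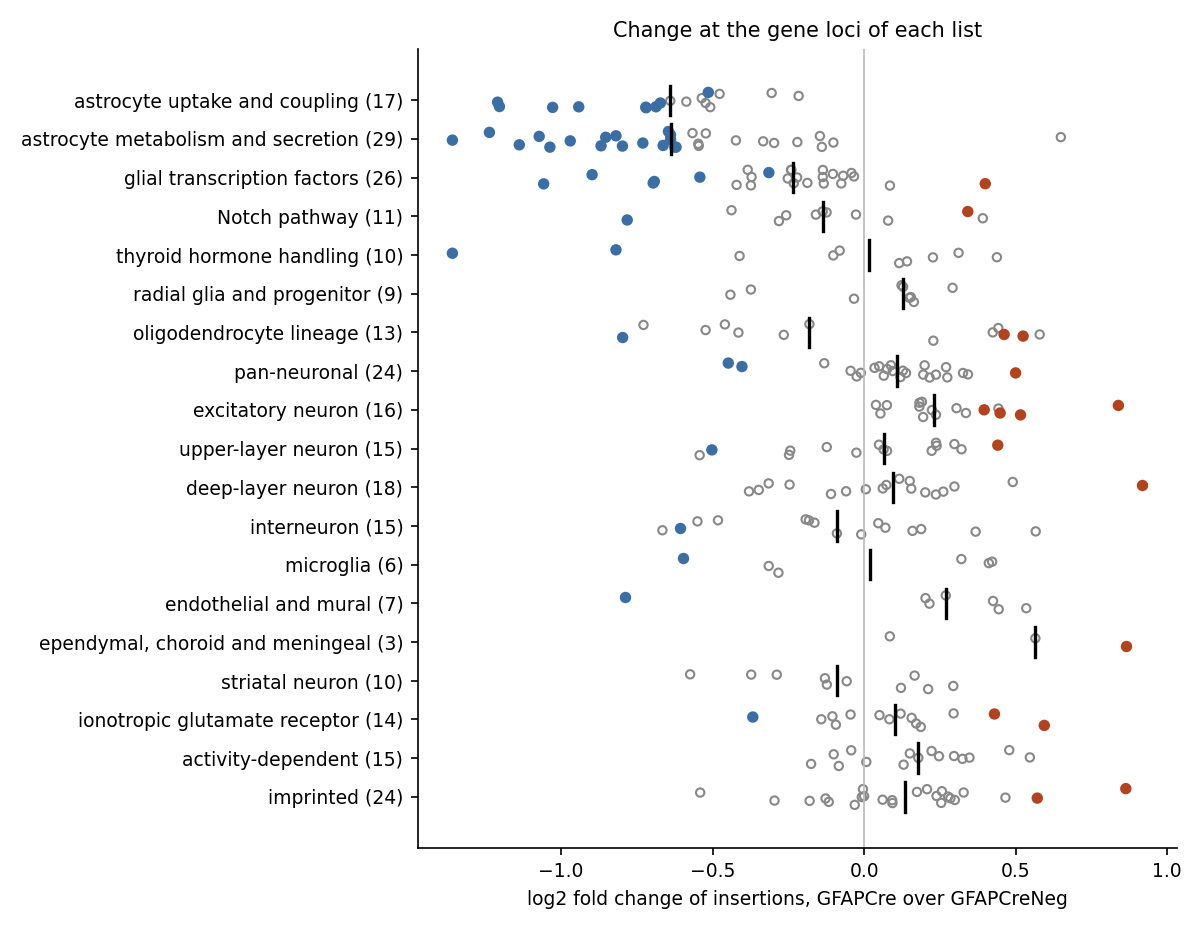
Log2 fold change of insertions (GFAPCre over GFAPCreNeg) at each tested locus of the fixed gene lists, with filled red points for loci that rose, filled blue points for loci that fell, open points for loci that did not pass and a bar for the median. Both astrocyte lists have their median at -0.64 and the excitatory neuron list at 0.23, which turns to -0.05 at distinct positions.

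Transcription factor loci of the astrocyte and radial glia lineage were mostly below 0. Of 29 listed loci 26 could be tested, 6 fell (23.1%) and 1 rose (3.85%), against 6.02% and 2.18% of all loci tested, 24 lay below 0, and the median was -0.24. Among animals of like depth (GFAPCre 3, 5 and 6 against GFAPCreNeg 1 and 2) the median was -0.06 and none passed. Npas3, a bHLH-PAS factor expressed in astrocytes (chromosome 12, 53248026 to 54072173), was at 1350, 1574 and 2281 CPM in the lowest, median and highest GFAPCre animal and at 2507, 2876 and 4927 in GFAPCreNeg. The groups did not overlap, and Npas3 fell by 0.90 (SE 0.135, adjusted p = 0.000243). Gli3, a mediator of hedgehog signalling (chromosome 13, 15463723 to 15730026), was at 178 to 416 CPM in GFAPCre and 445 to 939 in GFAPCreNeg, again without overlap, and fell by 1.06 (SE 0.166, adjusted p = 0.000291). Its relative Gli2 fell by 0.69 (adjusted p = 0.0187). Zbtb20, a zinc finger repressor of astrocytes and hippocampal neurons (chromosome 16, 42875689 to 43634392), ranged from 1595 to 3796 CPM in GFAPCre and from 3353 to 6999 in GFAPCreNeg. Only GFAPCre animal 3 lay inside the GFAPCreNeg range, and Zbtb20 fell by 0.70 (SE 0.164, adjusted p = 0.00734). Nfia, which drives gliogenesis, fell by 0.54 and the nuclear receptor Rora by 0.31. Lhx2, a cortical patterning factor, rose by 0.40 (SE 0.111, adjusted p = 0.0214), with 188 to 240 CPM in GFAPCre and 128 to 191 in GFAPCreNeg. Counted as distinct positions, Lhx2 turned to -0.07. Sox9 (-0.38), Sox2 (-0.42), Nfib (-0.07), Hes1 (-0.03) and the Id genes (-0.22 to -0.08) did not pass. In the Notch pathway, which keeps neural progenitors from differentiating, 1 of 11 tested loci fell, the coactivator Maml2 (-0.78, adjusted p = 0.000842), and 1 rose, its relative Maml3 (0.34, adjusted p = 0.0392). None of 9 tested radial glia and progenitor loci passed in edgeR or DESeq2 (median 0.13), and 1 was at an unadjusted p under 0.05.

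The astrocyte shares varied inside each group as well as between groups. Loci of both astrocyte lists held 0.534% to 0.919% of the insertions of a GFAPCre animal (mean 0.698% ± 0.151, SD, n = 6) and 0.892% to 1.64% of those of a GFAPCreNeg animal (1.08% ± 0.283, SD, n = 6). In unscaled counts GFAPCre animals held more of them, 5720.5 on average against 4289, a ratio of 1.33 where the totals differed 2.01-fold. The deepest animal, GFAPCre 2, had the lowest share, and the shallowest, GFAPCreNeg 6, the highest. GFAPCre animal 3 and GFAPCreNeg animal 1 had nearly the same depth (585792 and 582884 insertions) and nearly the same share (0.919% and 0.933%), whereas GFAPCre animals 5 and 6, with 600388 and 665439 insertions, had 0.576% and 0.605%. When only animals of like depth were fitted (GFAPCre 3, 5 and 6 against GFAPCreNeg 1 and 2), no locus passed in edgeR, and 920 were at an unadjusted p under 0.05. In that fit 728 of the 733 called loci it tested kept their direction, with Dio2 at -1.22 (adjusted p = 0.0674), Gja1 at -0.71 and Slc1a2 at -0.63. The animals fitted are among the 12 that made the calls, so the agreement in direction is no independent test. List medians in that fit were -0.49 for uptake and for metabolism loci, -0.06 for glial transcription factors and 0.28 for excitatory neuron loci. Thinning every animal to 202904 insertions left 7 of 15 tested uptake loci and 11 of 21 tested metabolism loci past the threshold in the lower direction, with Dio2 at -1.32. Over all loci 207 of 3766 were lower after thinning. Leaving out GFAPCre animal 3 and GFAPCreNeg animal 6 together gave 12 of 16 tested uptake and 20 of 29 metabolism loci that fell, against 645 of 9102 over all loci. Depth and group cannot be told apart further in these 12 animals.

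**Figure D3:**
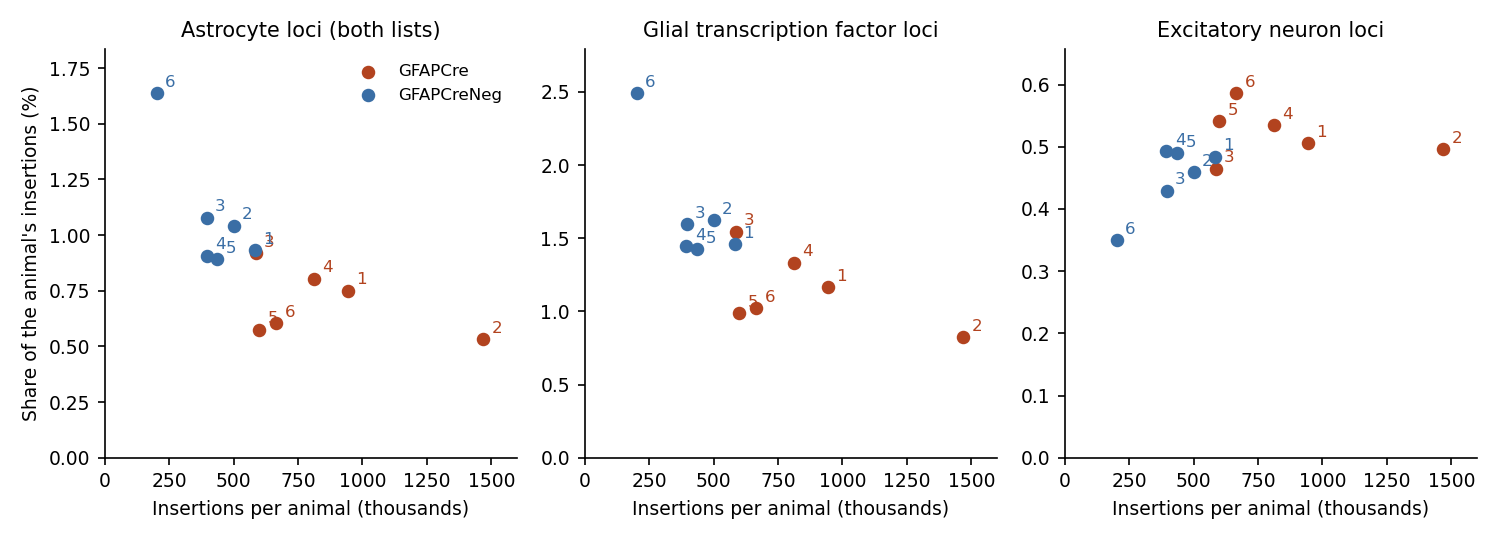
Share of each animal's insertions (%) at astrocyte, glial transcription factor and excitatory neuron loci against its total insertions on a linear axis, with a numbered point per animal (red GFAPCre, blue GFAPCreNeg). The shallowest animal, GFAPCreNeg 6, has the highest astrocyte share (1.64%) and the deepest, GFAPCre 2, the lowest (0.534%).

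Within shared sequencing pools the summed astrocyte loci were lower in every block, while some single loci were not. The log2 ratio of GFAPCre to GFAPCreNeg for the summed astrocyte lists was -0.21, -1.24 and -0.59 in the 3 blocks, for Dio2 it was -0.77, -1.93 and -1.49, and for Gja1 -1.02, -1.87 and -1.28. For Npas3 the blocks gave -0.46, -1.42 and -1.03 and for Zbtb20 -0.15, -1.31 and -0.65. Slc1a3 did not keep its direction (0.10, -1.32 and -0.49), nor did Aqp4 (0.22, -1.12 and -0.92), Aldoc (0.33, -2.43 and -1.06) or Gfap (0.61, -0.41 and 1.84). With the pool as a block in edgeR, 2 of 18 tested uptake, 4 of 30 metabolism and 2 of 26 transcription factor loci passed in the lower direction. Over all loci in that fit 22 of 9394 did. Among them Dio2 (adjusted p = 0.0223), Gja1 and Gjb6 passed, while Slc1a2 (-0.71, adjusted p = 0.106) did not.

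A few loci of excitatory neurons were higher in GFAPCre when all insertions were counted, and none when distinct positions were. Of 20 listed loci 16 could be tested, and 4 of the 16 rose in edgeR (25.0% against 2.18% of all loci tested) and 3 in DESeq2. None fell in either tool, nor at an unadjusted p under 0.05, and the other 12 had values above 0 without passing. The median was 0.23, and it was -0.05 at distinct positions. Cbln1, a synapse-organising protein secreted by excitatory neurons (chromosome 8, 87468853 to 87472592), was at 37.5, 43.3 and 48.1 CPM in the lowest, median and highest GFAPCre animal and at 10.2, 27.3 and 32.0 in GFAPCreNeg. No animal of one group reached the other, and Cbln1 rose by 0.84 (SE 0.197, adjusted p = 0.00706). It held 220 and 61 insertions in all, and in the pool blocks its log2 ratio was 1.83, 1.09 and 0.48. Counted as distinct positions Cbln1 was at 0.34 and did not pass (adjusted p = 0.432). Slc17a6, a vesicular glutamate transporter (chromosome 7, 51621830 to 51671126), was at 61.8, 86.5 and 96.1 CPM in GFAPCre and at 40.8, 54.0 and 85.7 in GFAPCreNeg. The ranges overlapped, and Slc17a6 rose by 0.52 (SE 0.156, adjusted p = 0.0345). Neurod2, a bHLH factor of cortical excitatory neurons, rose by 0.45 (adjusted p = 0.0411) with 116 to 168 CPM against 51.1 to 115, and the LIM factor Lmo4 by 0.40 (adjusted p = 0.0434). Neurod6, a close relative of Neurod2, was at 0.34 and did not pass (adjusted p = 0.0654). Slc17a7, the main vesicular glutamate transporter of cortex, had too few insertions to be tested (72 and 23). The share of insertions at the listed loci was 0.521% ± 0.0422 (SD, n = 6) in GFAPCre and 0.451% ± 0.0549 (SD, n = 6) in GFAPCreNeg, and GFAPCreNeg animal 6 had the lowest. These calls moved with the settings: none of the 4 passed in edgeR when distinct positions were counted, where Neurod2 was at -0.08, and 1 to 7 loci passed when single animals were left out.

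Among layer genes and general neuronal genes few loci passed, at shares near those of all loci tested (2.18% higher and 6.02% lower). Of deep-layer loci 5.56% rose and none fell, of upper-layer loci 6.67% rose and 6.67% fell, and of pan-neuronal loci 4.17% rose and 8.33% fell, each 1 or 2 loci. Ntsr1, a neurotensin receptor used as a layer 6 marker (chromosome 2, 180499976 to 180544979), was at 24.1, 27.5 and 37.5 CPM in GFAPCre and at 10.1, 13.9 and 19.6 in GFAPCreNeg. All GFAPCre animals lay above all GFAPCreNeg animals, and Ntsr1 rose by 0.92 (SE 0.231, adjusted p = 0.0113), the only edgeR call among 18 tested deep-layer loci, where DESeq2 made none. It held 141 insertions in GFAPCre and 37 in GFAPCreNeg, so the GFAPCreNeg level rests on few events. Among 15 tested upper-layer loci the layer 4 receptor Rorb fell by 0.50 (adjusted p = 0.00409), and it did not overlap between groups (574 to 916 against 936 to 1429 CPM). Among 24 tested pan-neuronal loci the cytoskeletal gene Map2 fell by 0.40, without overlap, and the kinesin Kif5c rose by 0.50. Snap25, the synaptic release protein, was at 0.05 and Rbfox3, which encodes NeuN, at 0.27, and neither passed. Among 14 tested ionotropic glutamate receptor loci the kainate receptor genes Grik3 (0.59) and Grik4 (0.43) rose and the AMPA receptor gene Gria2 fell by 0.37. None of 15 activity-dependent loci and none of 10 striatal neuron loci passed in edgeR or DESeq2 (medians 0.18 and -0.09), with 1 and 2 at an unadjusted p under 0.05. Map2, Gria2 and Rorb are thus neuronal genes whose loci fell.

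Markers of other cells that cortex holds gave few calls, 1 to 3 a list, to be read against 2.18% higher and 6.02% lower over all loci tested. Interneuron loci had 1 call among 15 tested (6.67%, near that background), Sox6, which fell by 0.61 and is also a glial gene. The interneuron factors Dlx5 (-0.67, adjusted p = 0.0731) and Dlx6 (-0.55, adjusted p = 0.0833) lay below 0 without passing, and Dlx1, a defining interneuron factor, was at -0.19 (adjusted p = 0.477), with 48.8 to 76.6 CPM in GFAPCre and 57.6 to 84.5 in GFAPCreNeg. Gad1 (60 and 37 insertions) and Gad2 (61 and 35), the enzymes that make GABA, had too few insertions to be tested. In the oligodendrocyte lineage Mbp, a myelin protein gene, rose by 0.46 and Lhfpl3, a gene of oligodendrocyte precursors, by 0.53, while Olig2, the lineage factor that astrocyte precursors also use, fell by 0.80 (adjusted p = 0.0404), 3 calls among 13 tested. Pdgfra held 18 and 2 insertions, Csf1r of microglia 23 and 6, and Cldn5 of endothelium 8 and 2, all too few to test. Of 6 tested microglia loci 1 fell, Sall1 (-0.60), which neural progenitors also express, of 7 endothelial and mural loci 1 fell, the Wnt effector Lef1 (-0.79), and of 3 ependymal, choroid and meningeal loci 1 rose, Dcn (0.86). Dcn held 132 and 36 insertions, with GFAPCreNeg animals between 0 and 23.6 CPM. Of 24 tested imprinted loci 2 rose, Usp29 (0.57, adjusted p = 0.0123) and again Dcn.

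Named by size of change, the lowest loci began with Car2 and Dio2 and the highest with Col23a1. Among loci past the threshold, without overlap between groups and at or above the median level, the 12 lowest were Car2, Dio2, Chst2, Gja1, S1pr1, Gramd3, Gli3, Cyp2j6, Mertk, Soat1, Ednrb and Tmem51, and 3 of these stand in the fixed astrocyte lists and 1 among the transcription factors. Car2, a carbonic anhydrase of glia (chromosome 3, 14886269 to 14900770), was at 25.5, 37.2 and 75.3 CPM in GFAPCre and at 89.0, 106 and 179 in GFAPCreNeg and fell by 1.41 (SE 0.191, adjusted p = 9.64e-05). Chst2, a carbohydrate sulfotransferase, fell by 1.24 and S1pr1, the sphingosine phosphate receptor of astrocytes and endothelium, by 1.09. Mertk, the receptor with which astrocytes and microglia engulf debris and synapses (chromosome 2, 128698915 to 128803162), was at 104 to 214 CPM in GFAPCre and 244 to 608 in GFAPCreNeg and fell by 1.05 (SE 0.184, adjusted p = 0.000668). Soat1, which esterifies cholesterol, and Cyp2j6, a fatty acid epoxygenase, fell by 1.04 and 1.05. The 12 highest were Col23a1, Lipc, Gm14279, Ipo5, Vwa5b1, Stk33, Tgm3, Crtac1, Grik3, Adgrv1, Wdr82 and Pcdhac2, with log2 fold changes from 0.87 down to 0.53. Col23a1, a membrane collagen (chromosome 11, 51289679 to 51583925), was at 117, 127 and 145 CPM in GFAPCre and at 58.9, 69.1 and 77.9 in GFAPCreNeg and rose by 0.87 (SE 0.122, adjusted p = 0.000122). The log2 ratio of Col23a1 was between 0.59 and 0.94 in the pool blocks. Pcdhac2 overlaps 16 other loci of the clustered protocadherins, so its value (0.53) stands for that stretch.

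Windows, which ignore gene borders, were lowest over Dio2 and Npas3 and highest over Snrpn and near Arpp21. Among windows chosen by the same conditions, the lowest was on chromosome 12 from 90700001 to 90750000, which holds Dio2, at 77.2 to 190 CPM in GFAPCre and 244 to 623 in GFAPCreNeg, and it fell by 1.44 (SE 0.215, adjusted p = 0.000276). Next came a window inside Npas3 (chromosome 12, 53750001 to 53800000), which fell by 1.43, more than the whole Npas3 locus. Windows over Abi1 (-1.39), Maml2 (-1.36), Daam2 (-1.36) and Nt5c2 (-1.33) followed. The highest window overlapped Snrpn, an imprinted gene (chromosome 7, 60450001 to 60500000), at 33.8 to 60.9 CPM in GFAPCre and 18.4 to 32.8 in GFAPCreNeg, and it rose by 0.94 (SE 0.202, adjusted p = 0.0043). The window over Cbln1 rose by 0.86 (adjusted p = 0.00926). The other 4 lay between genes, nearest to Arpp21 (0.90), Plcl1 (0.82), Pdcd6ip (0.82) and Nr2f2 (0.73).

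Inside the loci the change followed the places that both groups used most. At Dio2 the 5 kb before the gene start held 48.4 ± 12.1 CPM (SD, n = 6) in GFAPCre and 105 ± 44.1 (SD, n = 6) in GFAPCreNeg, and the 5 kb after it 54.6 ± 19.8 and 141 ± 57.4 (SD, n = 6 each). At Gja1 the 5 kb after the start held 48.2 ± 15.1 and 135 ± 60.9 CPM (SD, n = 6 each). At Zbtb20 most of the difference near the start lay inside the gene, 30 to 40 kb downstream, where the first 5 kb held 210 ± 67.9 and 355 ± 156 and the next 5 kb 190 ± 58.9 and 340 ± 136 (GFAPCre and GFAPCreNeg, mean CPM ± SD, n = 6 each), while the 5 kb after the start held 38.4 ± 16.5 and 49.7 ± 11.4 (SD, n = 6 each). At Cbln1 3.64% of the locus's insertions in GFAPCre and 1.64% in GFAPCreNeg lay in the gene. The most used Cbln1 site (chromosome 8, 87479426) lay outside the gene at a higher coordinate. Distances at Cbln1 were taken from the lower coordinate of the gene, which need not be its start. The most used Dio2 site, inside the gene 4.11 kb from its start, held 48 insertions in GFAPCre and 54 in GFAPCreNeg, with 5 to 13 and 5 to 14 per animal. Positions that are used often can reach the limit of 10 per strand, and the lists were therefore also read at like re-use. Where GFAPCreNeg animals held the fewest insertions per used site, 4 astrocyte loci had a median of -0.41 and 4197 other loci 0.10. In the next bin, below 1.5 insertions per site, the medians were -0.62 (14 loci) and 0.01 (2672 loci). At 1.5 to 2 they were -0.59 (15 loci) and -0.11 (1586 loci). At 2 to 3 they were -0.77 (12 loci) and -0.24 (416 loci), and above 3 they were -0.66 (1 locus) and -0.39 (30 loci). The median of the other loci thus fell with re-use, and that of the astrocyte loci lay below it in every bin. Of the other loci in the least re-used bin 147 were higher and 70 lower, against 2 and 76 at 2 to 3. Whether re-use bears on the direction of the calls was not tested. With each site's count corrected for filled pieces, 668 loci passed, with Dio2 at -1.41, Gja1 at -1.38 and Cbln1 at 0.86.

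**Figure D4:**
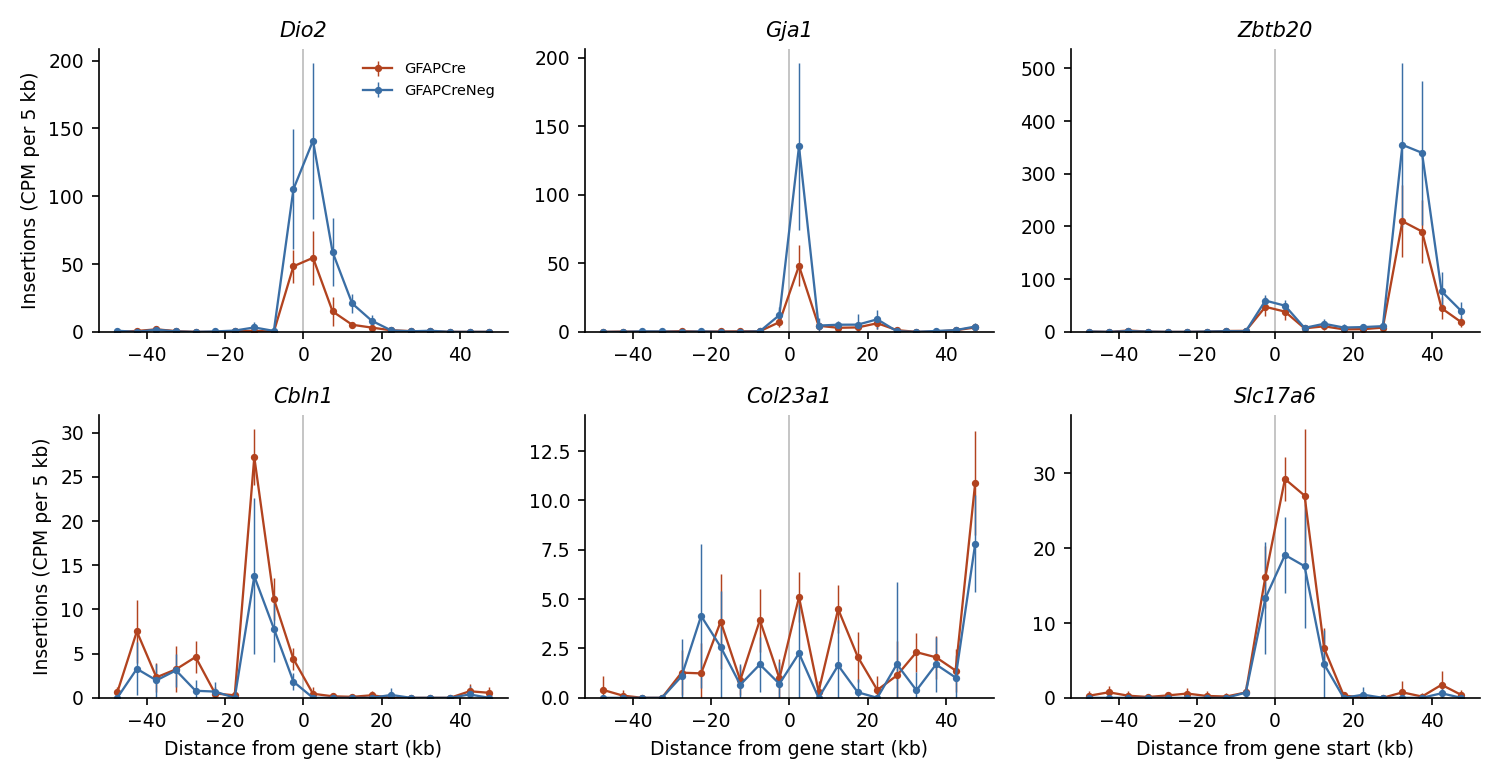
Mean insertions (CPM per 5 kb, error bars SD, 6 animals per group) against the distance from the gene start (kb, positive downstream) at 6 loci, GFAPCre in red and GFAPCreNeg in blue. At Dio2 the bin after the start holds 54.6 in GFAPCre and 141 in GFAPCreNeg. At Cbln1 distances are taken from the lower coordinate of the gene, which need not be its start, with higher coordinates to the left.

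The animals can also be placed beside the other cortex groups read from RNA, in 1 scaling over all of them. At Dio2 the order was C57bl6J, which received Cre-independent virus (52.8 ± 10.6 CPM, SD, n = 2), GFAPCre (129 ± 40.5, SD, n = 6), Syn1Cre (131 ± 83.3, SD, n = 6), Frontflip GFAPCre (280 ± 117, SD, n = 3), GFAPCreNeg (342 ± 125, SD, n = 6) and Syn1CreNeg (412 ± 98.1, SD, n = 6). GFAPCre and Syn1Cre, whose Cre is named for a neuronal synapsin, did not differ beyond their spread at Dio2, nor did the 2 Cre-negative groups. Gja1 (73.0 CPM in GFAPCre, 57.1 in Syn1Cre, 176 in GFAPCreNeg) and Npas3 (1712, 1558 and 3237) were placed alike. At Slc1a3 GFAPCre held 506 CPM, Syn1Cre 317 and GFAPCreNeg 741.

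Syn1Cre against Syn1CreNeg shares no animal with the GFAPCre comparison, although Syn1CreNeg animals shared pools with GFAPCre animals 1 to 3. Depth differed in the same direction, with 907872 ± 335245 insertions in Syn1Cre and 287673 ± 204289 in Syn1CreNeg (SD, n = 6 each). Syn1CreNeg animals ranged from 95188 to 542788. Whether depth bears on the calls shared by the lines was not tested. The Syn1Cre comparison had more calls: 2591 of 8391 loci tested (30.9%), of which 1459 were lower (17.4%) and 1132 higher (13.5%). Of the 539 loci lower in GFAPCre, 523 were tested there, and 467 of these were lower in Syn1Cre too (89.3%), none was higher, and 521 lay below 0. The shared loci are 32.0% of the loci lower in Syn1Cre. Of the 195 loci higher in GFAPCre, 188 were tested and 113 were higher in Syn1Cre (60.1%), which is 9.98% of the loci higher there. At Dio2 the Syn1Cre line fell by 1.72, at Gja1 by 2.03, at Slc1a2 by 1.13 and at Zbtb20 by 1.44, and at Cbln1 it rose by 1.06. All 28 metabolism and 16 uptake loci tested in both lines lay below 0 in Syn1Cre, and 26 and 15 of them passed. Gfap, at 0.65 in GFAPCre, fell by 0.73 in Syn1Cre.

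Whether the effect of Cre differs between the lines was tested as an interaction over 24 animals. Of 10265 loci tested 75 passed (0.731%): 27 had a more positive Cre effect in the GFAPCre line (0.263%) and 48 a more negative one (0.468%). Of the 539 loci lower and the 195 higher in GFAPCre, 1 each passed. In simulated counts the interaction test recovered 17% of loci changed 1.5-fold and 80% of those changed 2-fold, where only loci at or above the median level were changed. A locus that did not pass may therefore still differ between the lines. For astrocyte loci the differences were mostly positive without passing, with a median of 0.61 over 18 tested uptake loci, of which Kcnj10 passed (1.24, SE 0.319, adjusted p = 0.0463). Gja1 was at 0.81 (adjusted p = 0.300), Slc1a3 at 1.11 (adjusted p = 0.115) and Gfap at 1.36 (adjusted p = 0.0794). Among glial transcription factors Id3 (1.41) and Emx2 (1.34) passed, with Syn1Cre values of -1.56 and -1.59 that passed and values of -0.13 and -0.23 in GFAPCre that did not pass. Interneuron loci differed between the lines: 14 of 21 tested passed in the negative direction, against 0.468% of all loci. In GFAPCre against GFAPCreNeg only 15 listed loci could be tested. Of the 14, Gad1, Gad2, Sst, Maf and Nxph2 had too few insertions for that test. Their level in Syn1Cre, where they are high, helped them pass the low-count filter here, so their negative differences are not independent support. Dlx1 was at 60.2 ± 12.1 CPM in GFAPCre, 68.4 ± 9.53 in GFAPCreNeg, 65.8 ± 18.8 in Syn1CreNeg and 340 ± 49.2 in Syn1Cre (SD, n = 6 each). Its level was thus high in Syn1Cre alone among these 4 groups, and the difference was -2.58 (SE 0.233, adjusted p = 3.72e-10). Among loci also tested in GFAPCre against GFAPCreNeg, Dlx5 was at -2.68, Dlx6 at -2.49, the neuregulin receptor Erbb4 at -2.15 and Nxph1 at -2.07, and all passed. Sst, an interneuron peptide gene (-3.55), Gad2 (-2.38) and Gad1 (-2.32) passed too, with the limit given above. In GFAPCre against its own control none of Dlx1, Dlx5, Dlx6, Erbb4 and Nxph1 passed. Dlx5 (-0.67), Dlx6 (-0.55), Dlx1 (-0.19) and Erbb4 (-0.18) lay below 0 and Nxph1 (0.37) above it. None of the 15 interneuron loci tested there rose in edgeR, and 2 were above 0 at an unadjusted p under 0.05. Sst, Gad1 and Gad2 could not be tested there.

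**Figure D5:**
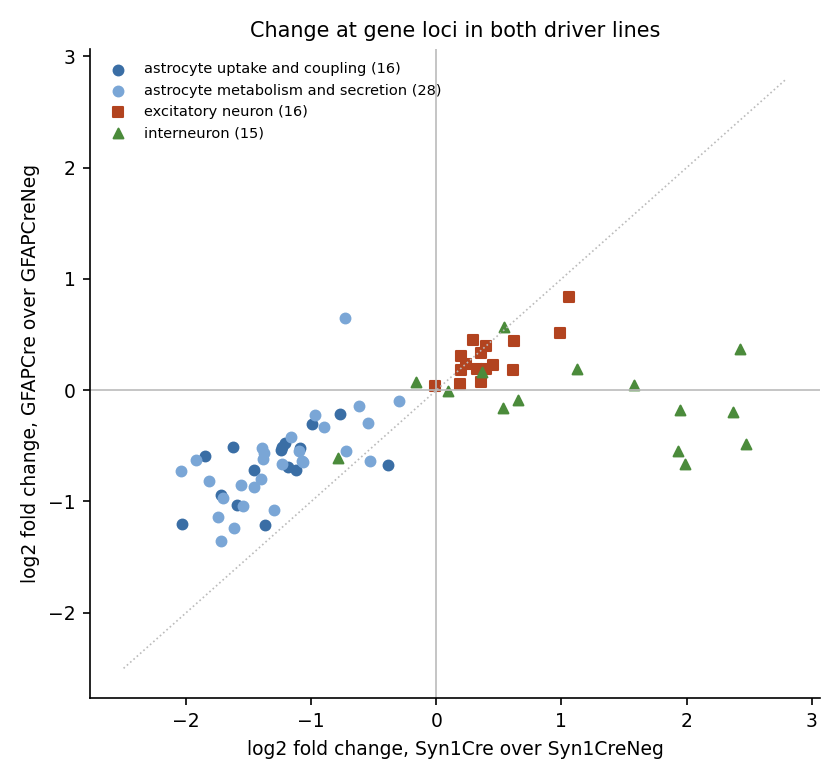
Log2 fold change at each locus of 4 lists in GFAPCre over GFAPCreNeg (vertical axis) against Syn1Cre over Syn1CreNeg (horizontal axis), with a dotted line where they are equal. Astrocyte loci other than Gfap lie below 0 on both axes, excitatory neuron loci lie above 0 in GFAPCre (all insertions counted), and interneuron loci lie between -0.67 and 0.57 in GFAPCre and reach 2.48 in Syn1Cre.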

How the data were processed

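Self-reporting transposon libraries of cortex RNA were analysed from 12 animals (6 GFAPCre, 6 GFAPCreNeg), with 17 further animals for reference, so that 29 of 47 deposited tables were used. The authors deposited, per animal, 1 line per insertion with its position, strand, a barcode and raw read count, judged from the values. Read counts entered only the sum of reads and an alternative that asks for at least 2 reads, and an insertion was 1 line of a table. The genome build mm10 and the tools Novoalign and Bowtie2 are named in the submitters' processing notes, without roles, and filters are not given in the sources used here. Groups and replicate numbers came from the labels, with the animal as replicate. GEO samples that pool pieces of several animals were taken as sequencing pools.

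Insertions on chromosomes 1 to 19 were counted in 50 kb windows and in RefSeq protein-coding gene bodies (GRCm38.p6, 20661 genes) with 10 kb flanks. Counts were tested with edgeR 4.0.16 in R 4.3.3 (quasi-likelihood test, TMM factors, filterByExpr, Benjamini-Hochberg adjusted p under 0.05), with DESeq2 1.42.0 as an alternative. SE is the log2 fold change divided by the square root of F. Values per animal were compared by exact permutation tests. In simulated counts the locus test recovered 65% of loci changed 1.5-fold and 98% of those changed 2-fold, with 7.39% false calls, over 8697 loci. The window test recovered 41% and 90.9%, with 7.09% false calls, and the interaction test 17% and 80%, with 8.49% false calls. Only features at or above the median level were changed in these simulations, so recovery at lower levels was not measured. Named loci are the 12 highest and 12 lowest called loci without overlap between groups and at or above the median level, the 4 markers given for the comparison, up to 5 members past the threshold of each of 19 lists, and defining markers whatever their values; further list members are named by their values. Named windows follow the same conditions, 6 in each direction. The 5 loci most like Dio2 were taken by Pearson r over the 12 animals. The members and lists were chosen with earlier results of these data known. Same-numbered animals did not deviate together (correlation -0.30 to 0.20), so replicate numbers pair nothing. Alternatives were other scalings, filters, window and flank sizes, distinct positions, thinning, pools, depth and each animal left out. Some loci that the naming rule selects are not reported here.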

Additional observations from a re-analysis of the deposited data

Results flagged for a closer look

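GFAPCreNeg animal 6, the shallowest of the 12, lay apart from the other 5 animals of its group at 28 of the named loci, by a gap test that chance passes in about 1 in 20 groups. It was the highest at 25 of these. Among astrocyte genes it was at 582 CPM at Dio2, 306 at Gja1, 347 at Gjb6, 1588 at Slc7a11, 1041 at Slc1a2, 1281 at Slc1a3, 168 at Aqp4, 174 at Aldoc, 265 at Atp13a4 and 414 at Ednrb. Among transcription factors and pathway genes it was at 4927 CPM at Npas3, 6999 at Zbtb20, 939 at Gli3, 944 at Maml2, 128 at Sox9, 128 at Olig2, 1593 at Sox6 and 638 at Sall1. Among the other loci it was at 179 CPM at Car2, 225 at Chst2, 465 at S1pr1, 745 at Gramd3, 608 at Mertk, 168 at Tmem51 and 556 at Pdlim5. It was the lowest of its group at Gm14279 (10.2 CPM), Lmo4 (66.4) and Grik4 (51.1). Its share of insertions in the windows densest in C57bl6J was 15.6%, and its share at positions used more than once was 34.8% after thinning, both the highest of the group.

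Single animals also lay apart in 6 other checks: GFAPCre animal 5 at Lipc (80.1 CPM) and Ntsr1 (37.5), GFAPCre animal 3 at Car2 (75.3), GFAPCre animal 4 at Mbp (155), GFAPCre animal 6 at Neurod2 (168) and GFAPCreNeg animal 5 at Dlx1 (84.5). In all, 36 of 156 checks passed.

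The effect of Cre differed between the GFAPCre and Syn1Cre lines at 15 of the loci checked, by the interaction test in edgeR. Gad1 and Gad2 were among these, although they had too few insertions to be tested in GFAPCre against GFAPCreNeg. The difference in log2 fold change was -2.32 at Gad1, -2.38 at Gad2, -2.58 at Dlx1, -2.68 at Dlx5, -2.49 at Dlx6, -2.15 at Erbb4 and -2.07 at Nxph1. It was -1.47 at the kainate receptor gene Grik1, -1.24 at the dopamine receptor gene Drd1, -1.03 at Cux2, -0.92 at Nr4a2 and -0.84 at Elavl2. It was positive at Kcnj10 (1.24), Id3 (1.41) and Emx2 (1.34).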

How the results depend on the processing

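The 61 named loci that passed were refitted under the alternatives, 1751 values in all: 1444 kept direction and threshold, 305 kept direction without passing, and 2 reversed, Lhx2 (-0.0735) and Neurod2 (-0.0843) at distinct positions. The 734 loci became 446 at distinct positions, 274 thinned, 454 with GFAPCre 4 to 6 only, 210 with GFAPCre 1 to 3 only, 301 with pool-sharing animals and 23 with the pool as a block, and 0 at like depth. The 1098 windows became 626, 304, 696, 113, 513, 179 and 0 in the same order, and 1577 windows were at an unadjusted p under 0.05 at like depth. DESeq2 called 569 loci and 745 windows. Without a low-count filter the median locus moved to 0.10. The 9 uptake loci became 2 with the pool block and 0 at like depth. The 17 metabolism loci became 11 thinned, 7 with GFAPCre 1 to 3, 4 with the pool block and 0 at like depth. The 6 transcription factor loci became 2, 2 and 0 in the last 3 of these. The 4 excitatory loci became 0 at distinct positions (median -0.05), with the pool block and at like depth, 2 with pool-sharing animals, 1 with GFAPCre 1 to 3 and 7 without GFAPCre 3 and GFAPCreNeg 6. The 75 differences between lines became 31 at distinct positions.

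Leaving out single animals gave 371 (without GFAPCre 2) to 1084 (without GFAPCre 3) loci and 546 to 1753 windows, with windows beyond 1.5-fold fewer without GFAPCre 2 (546), 5 (700) and 6 (657) and GFAPCreNeg 2 (712) and 3 (627), and more without GFAPCre 3 (1753). It gave 7 to 14 uptake, 10 to 22 metabolism, 3 to 7 transcription factor and 1 to 7 excitatory loci. Excitatory counts moved beyond 1.5-fold without any animal but GFAPCre 1 and GFAPCreNeg 4 and 5, uptake without GFAPCre 3 (14), and metabolism (10) and transcription factors (3) without GFAPCre 2. In the pool-sharing animals the difference in log10 insertions was 0.27, in gene loci -2.76 and in re-used positions -5.42, and none of these passed, where 3 against 4 animals allow no unadjusted p under 0.0286. The gene end share passed at distinct positions (-0.708) and was -0.286 to -0.502 without single animals, passing without GFAPCre 3 (exact permutation test, adjusted p = 0.0260). The densest-window share passed at distinct positions (-1.62) and over 5% of windows (-2.19), and was -0.790 to -1.38 without single animals, passing without GFAPCre 3 or 4 (exact permutation test, adjusted p = 0.0487 each). With the replicate number as a block, 621 loci, 1015 windows and 2 excitatory loci passed. Same-numbered animals correlated at -0.30 to 0.20, and 1 of 6 matched its own number best. The causes were not tested, except that thinning, like depth and the pool fits hold fewer animals or insertions.

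Depth differs between groups without overlap, and loci with few insertions (Gad1, Slc17a7, Pdgfra) could not be tested.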

Other observations

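The loci whose level followed Dio2 most closely over the 12 animals were Pdlim5 (Pearson r = 0.989), Gli3 (0.988), Bco2 (0.983), Garem1 (0.980) and Slc1a2 (0.979), out of 4471 loci compared. These are descriptions over animals that share the group difference and the depth difference. Pdlim5, a scaffold protein of the cytoskeleton, was at 140, 194 and 281 CPM in the lowest, median and highest GFAPCre animal and at 308, 354 and 556 in GFAPCreNeg, with a log2 fold change of -0.92 and no overlap. Bco2, a mitochondrial carotenoid-cleaving enzyme, was at 76.5 to 163 and 156 to 347 CPM, with overlap, and fell by 0.97, and its locus overlaps 3 others. Garem1, an adaptor of growth factor signalling, was at 212 to 311 and 330 to 536 CPM and fell by 0.60.

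Loci outside the interneuron list also differed between the lines. Loci with their flanks can share insertions with those of neighbouring genes, and overlap of these loci with interneuron loci is not given here. Metap1d was at 130 CPM in GFAPCre and 482 in Syn1Cre, with a difference of -1.95, and the potassium channel genes Kcnc2 (-1.73) and Kcnip1 (-1.86), the latter encoding a channel-interacting protein, were among the 48 negative differences. Among the 27 positive ones were Vit (1.42), Otx1 (1.18) and Disp1 (1.11). These loci were chosen after their values were seen.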
